A study of Danio rerio with 12 samples.

Results

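Voltage-gated calcium and sodium channels open when the membrane depolarizes, and each is built from a pore protein with accessory subunits that set how much of it reaches the membrane and how it gates. Calcium channels combine a pore (*cacna1*) with β (*cacnb*) and α2δ (*cacna2d*) subunits, and some with γ (*cacng*) subunits, whereas sodium channels combine a pore (*scn* with an a) with small β subunits (*scn* with a b). In the mammalian atrioventricular node the upstroke of the action potential is carried mainly by calcium channels of the L and T types, in atrial and ventricular working myocardium by the sodium channel. Neurons and retinal cells use other members of the same families.

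The genes described here are all those whose symbol starts with *cacna*, *cacnb* or *cacng*, or is *scn* with a number and a or b. They number 63 of the 27191 genes in the count files, and 11 of them were named from the tables of the study and 52 from a gene name table. By symbol they were assigned to 12 heart members, 36 neuronal and sensory members, 9 skeletal muscle members and 6 sodium channel β subunits, which serve heart and brain. By role they comprise 18 calcium channel pores, 7 β, 9 α2δ and 15 γ subunits, 8 sodium channel pores and 6 sodium channel β subunits. The name table gives many genes a human-style symbol in capitals without the letter of the zebrafish paralogue, and these are printed as given, with the Ensembl identifier where a symbol stands for several genes. Reads shared by close paralogues may have been divided between them by Salmon, so values of such pairs are uncertain.

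The libraries came from embryos of the zebrafish enhancer trap line *sqet31Et*, which carries a Tol2 insertion of EGFP with a basal *krt4* promoter at an unmapped site. All groups share this insertion, and EGFP marks the atrioventricular canal (AVC) strongly, some other myocardium weakly and, from 72 hpf, the bulbus arteriosus. Pooled hearts were dissociated and sorted into fluorescent (GFP+) and nonfluorescent (GFP-) cells at 48 and 72 hpf, with 3 libraries for each of the 4 groups. Levels are CPM, the counts of a gene scaled to a common library total with TMM factors, and since they are not divided by transcript length they are compared between libraries and never between genes. Each log2FC comes from edgeR's quasi-likelihood fit. The standard error (SE) was derived as the absolute log2FC divided by the square root of the F statistic of its test. The padj is the p-value of that test after Benjamini-Hochberg adjustment over 23222 genes, with values below 0.05 called. The study describes the replicates as technical in one place, and where they are, SD, SE and padj measure only technical spread.

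Libraries held between 20530602 and 62359004 counts. Of the GFP- libraries at 72 hpf, replicate 1 gave 21.0% of its counts to its top 10 genes, against at most 8.47% in any other library, and reached 38580 summed CPM over 4 red cell markers against 4308 and 4830 CPM in the other libraries of its group. Replicate 3 of the same group stood apart in the channel genes, with 211.4 summed CPM over the 36 neuronal and sensory members against 54.3 and 73.8 CPM in replicates 1 and 2. The sum over 10 cardiomyocyte markers was 3555 to 6794 CPM in GFP+ and 55.9 to 399.0 CPM in GFP- at 48 hpf, and 1738 to 2606 against 275.1 to 916.2 CPM at 72 hpf. None of these 10 markers was at 0 in any group. All 10 were called higher in GFP+ at 48 hpf, with a median log2FC of 5.2, against 14.6% of all genes tested. At 72 hpf 6 were called higher, with a median of 2.42, against 6.22%, and 0 were lower at either stage. In GFP-, 6 of the 10 rose between the stages, with a median log2FC of 1.94, against 26.1% of all genes tested. In GFP+ 2 fell, with a median of -0.88, against 11.5%. The fraction difference of 3 changed downward with stage (median -2.89), against 5.70% of all genes tested. The part of these marker differences in the fraction, stage and interaction results of the channel genes was not tested.

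Of the 63 members, 60 passed the filter on low counts. The *cacng6b* gene, *scn4aa* and *CACNG1* (ENSDARG00000052360), all of the skeletal muscle class, had 69, 34 and 29 counts over the 12 libraries and were not tested. At 48 hpf, 5 members were higher and 28 lower in GFP+ than in GFP- cells, against 14.6% and 14.4% of all genes tested. At 72 hpf, 4 were higher and 28 lower, against 6.22% and 10.8%. The median log2FC of the tested members was -1.42 at 48 hpf and -1.68 at 72 hpf, against 0.03 and -0.02 over all genes tested. At both stages 18 members were lower and 2, *cacna1g* and *scn4ba*, were higher, while 1, *cacna2d2a*, was lower at 48 hpf and higher at 72 hpf. The share of all genes tested that was called at both stages was not counted, so these overlaps have no background beside them. The count of 5 became 3 without replicate 1 or replicate 3 of GFP- at 48 hpf. The count of 28 at 72 hpf became 17 and 15 without replicates 1 and 2 of GFP+ and 16 without replicate 3 of GFP-, and was 28 without replicate 1 of GFP-. In bulk libraries, a lower level in a fraction can stand for fewer cells of a type or for less RNA in each cell, and these cannot be told apart.

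**Figure D1:**
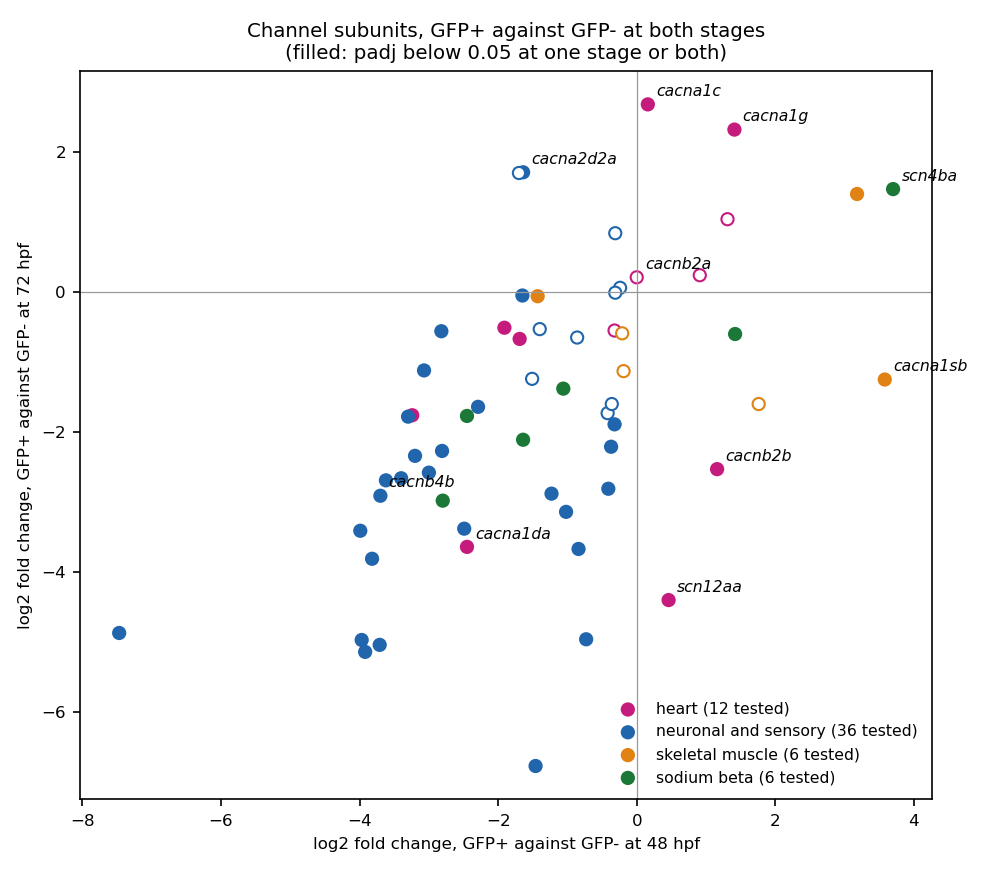
Log2 fold change of GFP+ against GFP- cells at 48 hpf (x axis) and 72 hpf (y axis) for the 60 tested channel subunits, each a point coloured by class and filled where padj is below 0.05 at one stage or both. Most neuronal and sensory members lie in the lower left, *cacna1g* and *scn4ba* in the upper right, and *cacna1c* near 0 on the x axis with 2.68 on the y axis.

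Among the heart members, *cacna1g* at both stages and *cacna1c* at 72 hpf were called higher in GFP+ cells. The cardiomyocyte markers were higher there too, with median log2FCs of 5.2 at 48 hpf and 2.42 at 72 hpf. The part of cardiomyocyte content in these calls was not tested. The T type pore *cacna1g* (ENSDARG00000089913), which opens near the resting potential and contributes to pacemaking in mammals, was at 17.8, 27.7 and 18.5 CPM in GFP+ and at 8.76, 8.55 and 6.72 CPM in GFP- at 48 hpf. Its levels at 72 hpf were 13.3, 11.6 and 21.2 CPM in GFP+ and 2.37, 2.51 and 4.26 CPM in GFP-. Every GFP+ library was above every GFP- library at both stages. The log2FC was 1.41 ± 0.33 (SE, padj = 0.0068 by edgeR) at 48 hpf and 2.32 ± 0.35 (padj = 0.00072) at 72 hpf, and the gene was called in each of the 6 fits that left out 1 library of the groups compared, at either stage. Between the stages *cacna1g* fell by 1.39 ± 0.34 on the log2 scale in GFP- (padj = 0.0057), with separate ranges. In GFP+ its log2FC was -0.47 ± 0.33 (padj = 0.32).

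The L type pore *cacna1c* (ENSDARG00000008398), which in zebrafish is required for contraction of the ventricle, did not separate the fractions at 48 hpf, at 4.34, 5.32 and 3.89 CPM in GFP+ and 2.85, 5.32 and 3.95 CPM in GFP-. Its log2FC was 0.16 ± 0.52 there (padj = 0.85 by edgeR). By 72 hpf it was at 9.60, 13.0 and 17.6 CPM in GFP+ and at 0.339, 2.53 and 3.13 CPM in GFP-, without overlap, and the log2FC was 2.68 ± 0.55 (padj = 0.0049). It was called in each of the 6 fits without 1 library. In GFP+ cells *cacna1c* rose between the stages by 1.56 ± 0.52 on the log2 scale (padj = 0.048), but in each of the 6 fits without 1 library the padj was between 0.07 and 0.14. Scaling by total counts gave 0.19. The change of the fraction difference between the stages was 2.52 ± 0.74 (padj = 0.056) and was called with DESeq2's size factors (padj = 0.047), in the fit pairing libraries of the same number (2.59, padj = 0.034) and by the Wald test of DESeq2 (padj = 0.0052).

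At 72 hpf the GFP+ cells include those of the bulbus arteriosus, whose smooth muscle also uses L type channels. The sum over 6 markers of smooth muscle and bulbus arteriosus was 122.2 to 151.7 CPM in GFP+ and 22.3 to 41.1 CPM in GFP- at 48 hpf. It was 6627 to 7937 CPM and 1635 to 3144 CPM at 72 hpf. There *fbln5* alone was at 4210 to 5840 CPM in GFP+ and 235 to 366 CPM in GFP-. In the other direction, *acta2* was at 710 to 1240 CPM in GFP+ and 978 to 1620 CPM in GFP-. Of the 6, 3 were called higher in GFP+ and 0 lower at each stage. Of all genes tested, 14.6% and 14.4% were called so at 48 hpf and 6.22% and 10.8% at 72 hpf. None of the 6 was at 0 in all libraries of a group, but *elnb* was at most 0.0532 CPM at 48 hpf. All 6 rose in both fractions between the stages, against 11.4% of all genes tested in GFP+ and 26.1% in GFP-. The part of these 6 markers in the values of *cacna1c* and *cacna1g* was not tested.

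The other calcium channel pores assigned to the heart class followed the opposite order or none. That class rests on symbols, also for *cacna1g* and *cacna1c*, and whether the counts of its members came from heart cells was not tested. The gene *cacna1da* (ENSDARG00000102773), a pore of the L type that opens at low voltage and is used by the sinoatrial node and by hair cells, was at 3.10, 1.33 and 2.37 CPM in GFP+ and at 12, 15.0 and 10.1 CPM in GFP- at 48 hpf. At 72 hpf it was at 0.109, 0.230 and 0 CPM in GFP+ and at 0.678, 0.501 and 3.61 CPM in GFP-. It was lower in GFP+ without overlap at both stages, with a log2FC of -2.45 ± 0.71 (padj = 0.021 by edgeR) and -3.64 ± 0.84 (padj = 0.0097). The call at 48 hpf was lost without replicate 2 or 3 of GFP+ (padj = 0.078 and 0.063) or replicate 2 of GFP- (0.057), and the call at 72 hpf without replicate 3 of GFP- (0.056) and in the paired fit (-3.01, padj = 0.052). The 72 hpf call was also lost in the fit of only the 2 groups compared (padj = 0.055). Between the stages *cacna1da* fell in both fractions, with a log2FC of -4.12 ± 0.84 in GFP+ (padj = 0.0046) and -2.92 ± 0.73 in GFP- (padj = 0.0064).

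Its paralogue *cacna1db* (ENSDARG00000101589) was at 1.66, 1.46 and 1.38 CPM in GFP+ and 4.68, 4.33 and 5.53 CPM in GFP- at 48 hpf, with a log2FC of -1.69 ± 0.59 (padj = 0.047 by edgeR). The T type pore *CACNA1H* (ENSDARG00000099708) was at 0.421, 0.0532 and 0.460 CPM in GFP+ and 1.13, 1.54 and 0.823 CPM in GFP-, from 2 to 56 counts in a library, with a log2FC of -1.91 ± 0.67 (padj = 0.048). Neither call was kept in any of the 6 fits without 1 library, in which the padj was 0.075 to 0.12 for *cacna1db* and 0.064 to 0.14 for *CACNA1H*. In the fit that paired libraries of the same number, the padj of *CACNA1H* was 0.072. At 72 hpf the fractions overlapped for both genes, with *cacna1db* at 0.688, 1.02 and 0.949 CPM in GFP+ and 0.339, 0.632 and 3.13 CPM in GFP-, and *CACNA1H* at 0.145, 0.154 and 0.198 against 0.0847, 0.196 and 0.375 CPM. The T type pore *cacna1ha* (ENSDARG00000060496) overlapped between the fractions at both stages, at 5.31, 2.98 and 2.90 CPM against 5.60, 4.30 and 4.08 CPM at 48 hpf and 1.29, 1.21 and 6.05 against 1.19, 3.27 and 7.69 CPM at 72 hpf. Its log2FC was -0.32 ± 0.67 (padj = 0.76) and -0.55 ± 0.67 (padj = 0.60).

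**Figure D2:**
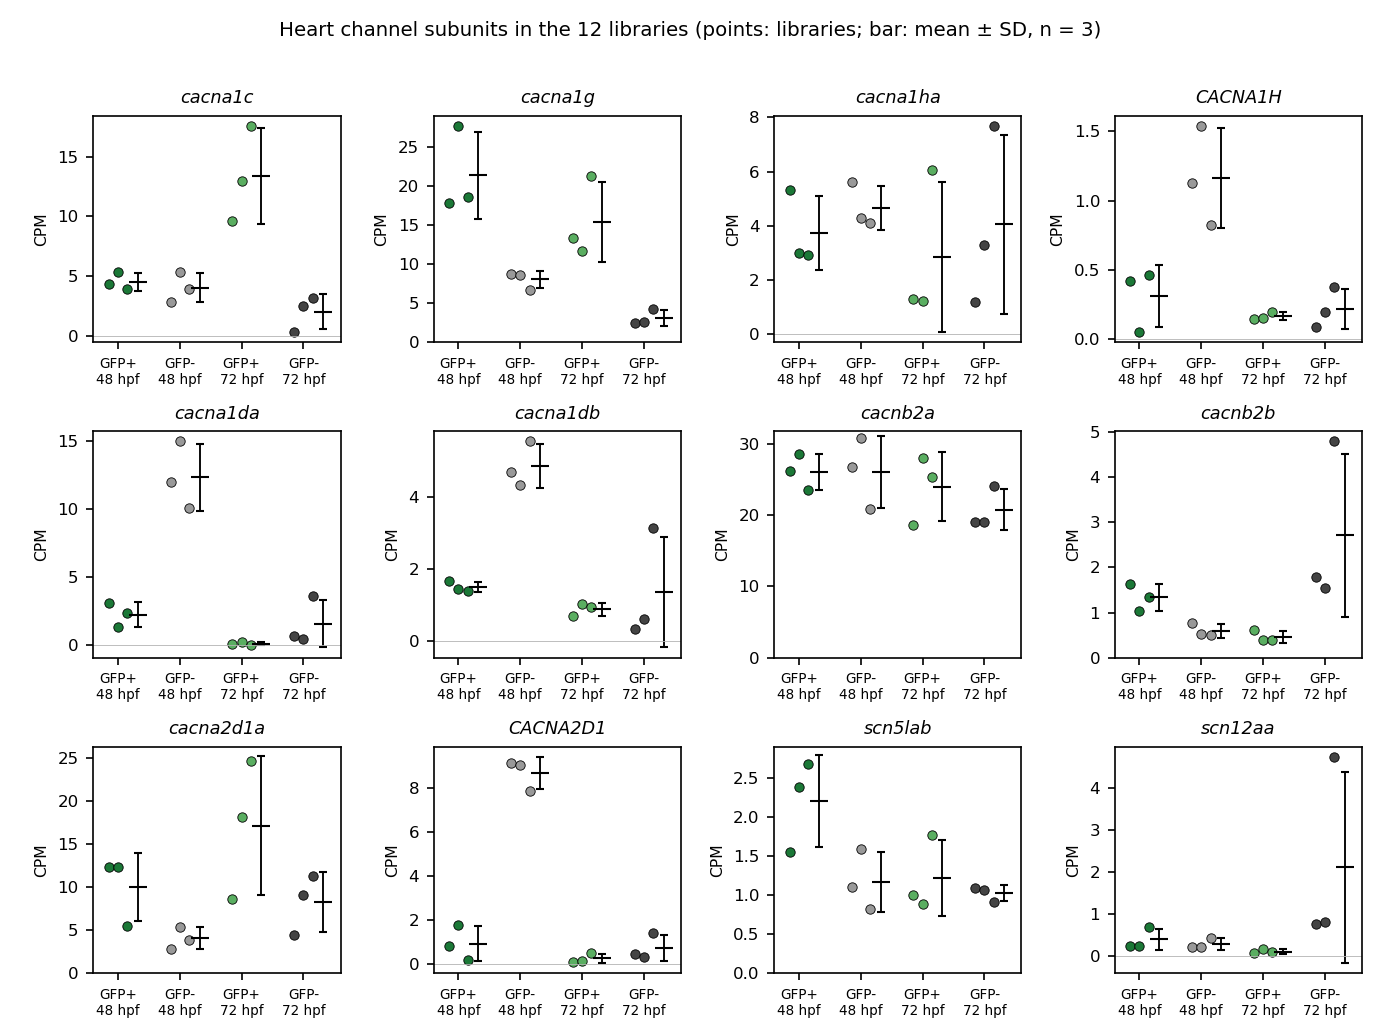
CPM (y axis of each panel) of the 12 heart members in GFP+ and GFP- libraries at 48 and 72 hpf, with a point for each library and the mean ± SD (n = 3) beside it. The panel of *cacna1g* shows both GFP+ groups above their GFP- groups, that of *cacna1c* only the GFP+ group at 72 hpf raised, and that of *cacnb2a* 4 groups with means between 20.8 and 26.1 CPM.

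The β subunits of the heart class differed from each other in pattern. The gene *cacnb2a* (ENSDARG00000099045), whose product carries the pore to the membrane and in the zebrafish heart is also known to act in cardiomyocyte proliferation, was at 26.2, 28.6 and 23.5 CPM in GFP+ and 26.7, 30.8 and 20.8 CPM in GFP- at 48 hpf. Its levels at 72 hpf were 18.6, 28.0 and 25.3 CPM in GFP+ and 19.1, 19.1 and 24.1 CPM in GFP-. All groups overlapped, and the log2FC between the fractions was 0.00 ± 0.25 at 48 hpf (padj = 1.0 by edgeR) and 0.21 ± 0.26 at 72 hpf (padj = 0.61). Its paralogue *cacnb2b* (ENSDARG00000055565) was at 1.63, 1.04 and 1.34 CPM in GFP+ and 0.771, 0.521 and 0.494 CPM in GFP- at 48 hpf, whereas at 72 hpf it was at 0.616, 0.384 and 0.396 CPM in GFP+ and 1.78, 1.55 and 4.80 CPM in GFP-. The order of the fractions was reversed between the stages, without overlap at either. The log2FC was 1.16 ± 0.49 at 48 hpf (padj = 0.097) and -2.53 ± 0.51 at 72 hpf (padj = 0.0042), and the change between them was -3.69 ± 0.70 (padj = 0.0094). The calls at 72 hpf and of the change were kept in each fit without 1 library.

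Of the α2δ subunits, which are extracellular and raise the amount of channel at the membrane, *cacna2d1a* (ENSDARG00000014804) was at 12.3, 12.4 and 5.52 CPM in GFP+ and 2.88, 5.43 and 3.89 CPM in GFP- at 48 hpf. By 72 hpf it was at 8.64, 18.2 and 24.6 CPM in GFP+ and at 4.49, 9.07 and 11.3 CPM in GFP-. The fractions were separate at 48 hpf and overlapped at 72 hpf, and the log2FC was 1.31 ± 0.47 (padj = 0.053 by edgeR) and 1.04 ± 0.46 (padj = 0.15). The paired fit at 48 hpf gave 1.27 with padj = 0.017. The gene named *CACNA2D1* (ENSDARG00000073752) moved the other way, at 0.815, 1.76 and 0.142 CPM in GFP+ against 9.15, 9.07 and 7.87 CPM in GFP- at 48 hpf, with a log2FC of -3.24 ± 0.78 (padj = 0.0076) that was called in each fit without 1 library. At 72 hpf it was at 0.0905, 0.134 and 0.475 CPM in GFP+ and 0.424, 0.305 and 1.40 CPM in GFP-, with overlap. In GFP- cells it fell between the stages by 3.59 ± 0.81 on the log2 scale (padj = 0.0036).

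Of the heart pores of the sodium channel, the gene *scn5lab* (ENSDARG00000102312), a pore of the zebrafish heart, was at 1.55, 2.39 and 2.69 CPM in GFP+ and 1.11, 1.59 and 0.823 CPM in GFP- at 48 hpf, and at 1.01, 0.883 and 1.78 against 1.1, 1.07 and 0.919 CPM at 72 hpf. The fractions overlapped at both stages, with a log2FC of 0.91 ± 0.41 (padj = 0.12 by edgeR) and 0.24 ± 0.42 (padj = 0.72). The other heart sodium pore, *scn12aa* (ENSDARG00000090724), was at 0.237, 0.239 and 0.672 CPM in GFP+ and 0.206, 0.192 and 0.428 CPM in GFP- at 48 hpf. Its levels at 72 hpf were 0.0543, 0.154 and 0.0791 CPM in GFP+ and 0.762, 0.807 and 4.73 CPM in GFP-, with a log2FC of -4.40 ± 0.87 (padj = 0.004). That call was kept in each fit without 1 library, although replicate 3 of GFP- held 139 of the 185 counts of its group.

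As a class, the 12 heart members counted 1 higher and 4 lower in GFP+ at 48 hpf and 2 higher and 3 lower at 72 hpf, against 14.6% and 14.4% of all genes tested at 48 hpf and 6.22% and 10.8% at 72 hpf. The 4 lower at 48 hpf were *CACNA2D1*, *CACNA1H*, *cacna1da* and *cacna1db*, and only that of *CACNA2D1* was kept in every fit without 1 library. All 12 are heart members by symbol only, and which cells their counts came from was not tested. The class median log2FC was 0.08 at 48 hpf and -0.53 at 72 hpf. Summed over the class, CPM was 74.7 ± 11 (SD, n = 3) in GFP+ and 76.0 ± 10.5 in GFP- at 48 hpf, and 75.9 ± 22.3 and 47.9 ± 19.2 at 72 hpf. Genes of high CPM weigh most in this sum, and *cacnb2a* alone had a mean of 26.1 CPM in both fractions at 48 hpf. Opposite differences also cancel in it, such as those of *cacna1g* (mean 21.3 against 8.01 CPM) and *cacna1da* (2.27 against 12.4 CPM) at that stage.

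Of the 36 neuronal and sensory members, 14 were called lower in GFP+ cells at both stages, 4 at 48 hpf only, 8 at 72 hpf only and 9 at neither stage, while *cacna2d2a* was called in opposite directions. For this overlap of the stages no share over all genes tested was counted. This class also rests on symbols, and which cells the counts of its members came from was not tested. At 48 hpf all 36 had a negative log2FC, 19 passed the test and the median was -1.67. At 72 hpf 32 were negative, 22 were called lower and 1, *cacna2d2a*, higher, with a median of -2.30. Those shares called lower were 52.8% and 61.1%, against 14.4% and 10.8% of all genes tested. The summed level was 66.1, 53.4 and 66.0 CPM in GFP+ and 424.9, 399.7 and 461.5 CPM in GFP- at 48 hpf. At 72 hpf it was 37.6, 40.7 and 51.1 CPM in GFP+ and 54.3, 73.8 and 211.4 CPM in GFP-, with replicate 3 of GFP- far above the other 2 of its group. The number called lower at 72 hpf was 13 without that library, and 13, 11 and 14 without replicates 1, 2 and 3 of GFP+ at 72 hpf.

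The summed markers of neurons and of retina were also lower in GFP+ than in GFP- cells at both stages. The sum over the 4 neuron markers matched of 10, *elavl3*, *elavl4*, *gap43* and *sncb*, was 125.5 to 191.5 CPM in GFP+ and 1630 to 2459 CPM in GFP- at 48 hpf, and 10.1 to 33.5 against 225.3 to 448.9 CPM at 72 hpf. All 4 were lower in GFP+ at both stages, against 14.4% and 10.8% of all genes tested, and none was at 0 in any group. The sum over 8 retina markers was 6.55 to 9.66 CPM in GFP+ and 394.9 to 512.4 CPM in GFP- at 48 hpf, and 3.64 to 4.76 against 547.6 to 1441 CPM at 72 hpf, and the list's *rho* (ENSDARG00000002193), the rod opsin, was at 0 in GFP+ at 48 hpf. Of the 8, 5 were lower in GFP+ at 48 hpf and all 8 at 72 hpf, against 14.4% and 10.8% of all genes tested. Replicate 3 of GFP- at 72 hpf was the highest of its group for both lists. Between the stages in GFP- the retina sum rose, whereas the mean summed level of the 36 channel members fell from 428.7 to 113.2 CPM. The part of these cell types in the channel values was not tested.

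**Figure D3:**
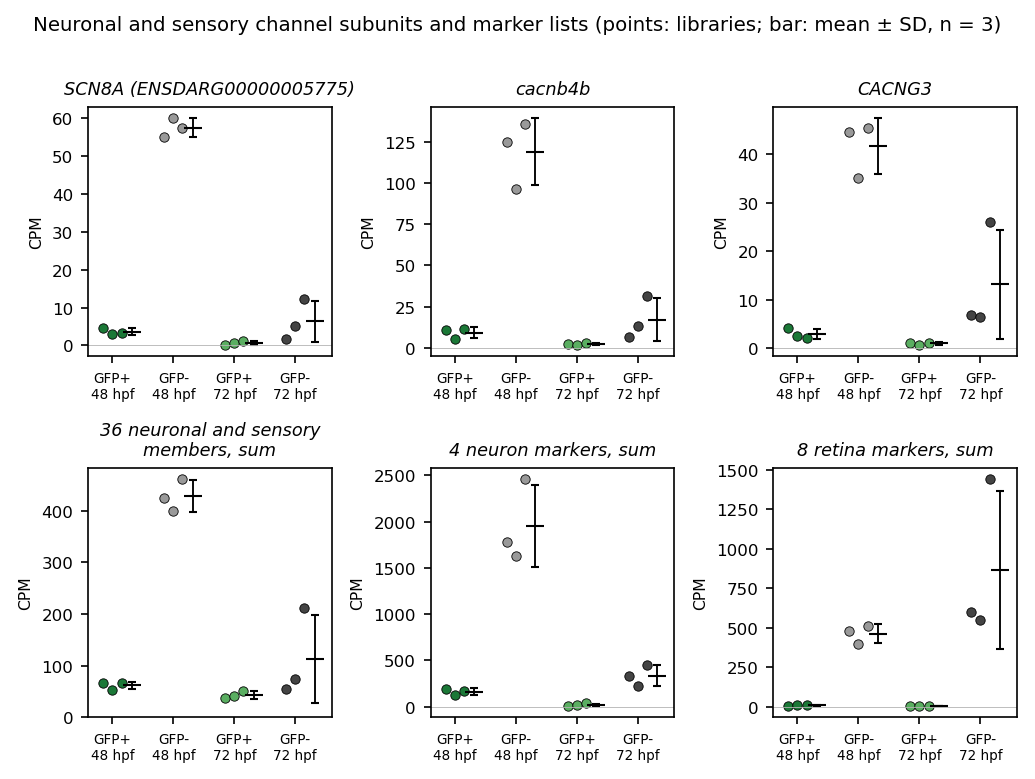
CPM (y axis) of the neuronal and sensory members *SCN8A* (ENSDARG00000005775), *cacnb4b* and *CACNG3*, and summed CPM of all 36 members of the class and of the neuron and retina markers, with a point for each library and the mean ± SD (n = 3). The GFP- group at 48 hpf is the highest in every panel but that of the retina markers, where replicate 3 of GFP- at 72 hpf reaches 1441 CPM.

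The neuronal pore of the sodium channel *SCN8A* (ENSDARG00000005775), which supports repetitive firing at the axon initial segment, was at 4.68, 2.98 and 3.19 CPM in GFP+ and at 54.9, 59.9 and 57.2 CPM in GFP- at 48 hpf. By 72 hpf it was at 0.145, 0.672 and 1.07 CPM in GFP+ and at 1.69, 5.04 and 12.3 CPM in GFP-. The ranges were separate at both stages, with a log2FC of -3.99 ± 0.68 (padj = 0.001 by edgeR) and -3.41 ± 0.70 (padj = 0.0048). The β subunit *cacnb4b* (ENSDARG00000062174), of a gene that in mammals serves calcium channels at synapses, was at 10.8, 5.34 and 11.3 CPM in GFP+ and at 124.7, 96.4 and 136.0 CPM in GFP- at 48 hpf. At 72 hpf it was at 2.23, 1.73 and 2.93 CPM in GFP+ and at 6.27, 13.5 and 31.4 CPM in GFP-. The log2FC was -3.70 ± 0.53 (padj = 0.00038) and -2.91 ± 0.52 (padj = 0.0021), again without overlap.

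The γ family holds subunits of muscle calcium channels and others that in mammalian neurons accompany AMPA receptors, and *CACNG3* and *CACNG8* belong to the latter. *CACNG3* (ENSDARG00000076401) was at 4.08, 2.58 and 2.16 CPM in GFP+ and at 44.6, 35.1 and 45.4 CPM in GFP- at 48 hpf, and at 1.09, 0.634 and 1.11 against 6.78, 6.5 and 26.1 CPM at 72 hpf. Its log2FC was -3.82 ± 0.54 (padj = 0.00037 by edgeR) and -3.81 ± 0.55 (padj = 0.00058). *CACNG8* (ENSDARG00000020450) was at 0.447, 0.213 and 0.389 CPM in GFP+ and 4.55, 5.07 and 6.42 CPM in GFP- at 48 hpf. Its levels at 72 hpf were 0.0543, 0.0768 and 0 CPM against 1.44, 1.26 and 2.96 CPM. It had the smallest padj of the class at both stages, with a log2FC of -3.92 ± 0.54 (padj = 0.0003) and -5.14 ± 0.63 (padj = 0.00021). The photoreceptor pore *CACNA1F* (ENSDARG00000023683), which releases transmitter at the ribbon synapse, was at 0.0789, 0.186 and 0.106 CPM in GFP+ and 0.848, 2.77 and 1.42 CPM in GFP- at 48 hpf, and at 0.344, 0.0576 and 0.158 against 2.96, 2.03 and 14.0 CPM at 72 hpf. Its log2FC was -3.71 ± 0.89 (padj = 0.0073) and -5.04 ± 0.88 (padj = 0.0018). The calls of *SCN8A*, *cacnb4b*, *CACNG3*, *CACNG8* and *CACNA1F* between the fractions were kept in each fit without 1 library.

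One γ gene, *CACNG7* (ENSDARG00000063006), had no counts in any GFP+ library at 48 hpf and 19, 27 and 19 counts in the GFP- libraries. Against a floor of 3 counts in each library it was at least 7.0-fold lower in GFP+. The neuronal members that did not separate the fractions at either stage include *cacng4a*, at 3.71, 3.27 and 2.51 CPM against 2.36, 3.45 and 5.99 CPM at 48 hpf, and *CACNG5* (ENSDARG00000039240), whose log2FC was -0.24 ± 0.36 and 0.06 ± 0.36. The difference between the stages was tested for each member by the interaction below.

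The sodium channel β subunits, small proteins with an immunoglobulin-like domain that modulate gating and adhesion, counted 2 higher and 4 lower in GFP+ at 48 hpf and 1 higher and 3 lower at 72 hpf, where 14.6% and 14.4%, and 6.22% and 10.8%, of all genes tested were called in those directions. The gene *scn4ba* (ENSDARG00000099031) was at 7.47, 8.99 and 14.5 CPM in GFP+ and at 0.720, 1.15 and 0.494 CPM in GFP- at 48 hpf. By 72 hpf it was at 3.66, 3.86 and 4.59 CPM in GFP+ and at 0.593, 2.40 and 1.19 CPM in GFP-. All GFP+ libraries were above all GFP- libraries at both stages, with a log2FC of 3.70 ± 0.51 (padj = 0.0003 by edgeR) and 1.47 ± 0.47 (padj = 0.048). The call at 48 hpf was kept in each fit without 1 library. The call at 72 hpf was lost in 5 of 6 such fits, with a padj of 0.083 to 0.12, and was kept without replicate 2 of GFP-. It was also lost with total counts (padj = 0.15), without a filter (0.053) and in the fit of only the 2 groups compared (0.14). The change of the difference between the stages was -2.23 ± 0.66 (padj = 0.057). *SCN4B* (ENSDARG00000060319) was at 6.5, 6.33 and 8 CPM in GFP+ and 2.34, 4.28 and 1.12 CPM in GFP- at 48 hpf, with a log2FC of 1.42 ± 0.43 (padj = 0.026), and at 3.95, 4.24 and 2.97 against 5.00, 7.78 and 4.12 CPM at 72 hpf, with a log2FC of -0.60 ± 0.43 (padj = 0.35). Its call at 48 hpf was lost without replicate 1 or 3 of GFP+ (padj = 0.054 and 0.079) or of GFP- (0.086 and 0.082). The change of its difference between the stages was -2.02 ± 0.61 (padj = 0.059), or -2.16 with padj = 0.035 in the paired fit.

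*SCN2B* and *scn3b* were lower in GFP+. *SCN2B* (ENSDARG00000101713) was at 4.60, 3.56 and 5.31 CPM in GFP+ and 26.9, 23.4 and 43.8 CPM in GFP- at 48 hpf, with a log2FC of -2.80 ± 0.70 (padj = 0.0091 by edgeR). At 72 hpf it was at 0.670, 0.154 and 1.11 against 0.932, 4.08 and 9.36 CPM, which overlapped, with a log2FC of -2.98 ± 0.74 (padj = 0.014). The call at 72 hpf was lost without replicate 1 or 2 of GFP+ (padj = 0.051 and 0.056) or replicate 3 of GFP- (0.054). It was also lost in the fit of only the 2 groups compared (0.072). In the RefSeq annotation of assembly GRCz12tu, *scn2b* and *scn4ba* are neighbours with 1 long noncoding gene between them. The gene named *SCN2B* here was matched to that *scn2b* by symbol only. At 48 hpf *SCN2B* and *scn4ba* differed between the fractions in opposite directions. The gene *scn3b* (ENSDARG00000062359) was at 5.47, 4.10 and 3.96 CPM in GFP+ and 9.48, 9.79 and 8.92 CPM in GFP- at 48 hpf, and at 2.99, 2.80 and 3.88 against 5.25, 9.27 and 10.5 CPM at 72 hpf, without overlap. Its log2FC was -1.06 ± 0.31 (padj = 0.020) and -1.38 ± 0.31 (padj = 0.0082). The call at 48 hpf was lost without replicate 2 or 3 of GFP+ (0.071 and 0.081) or replicate 1 or 2 of GFP- (0.056 and 0.054), and with total counts it was 0.12.

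**Figure D4:**
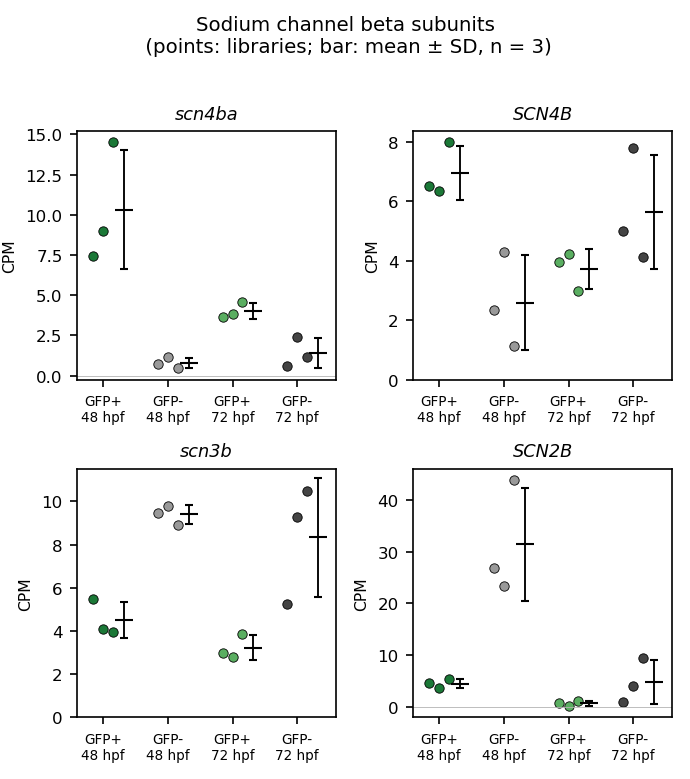
CPM (y axis of each panel) of the sodium channel β subunits *scn4ba*, *SCN4B*, *scn3b* and *SCN2B* in GFP+ and GFP- libraries at 48 and 72 hpf, with a point for each library and the mean ± SD (n = 3). In the panels of *scn4ba* and *SCN4B* the GFP+ libraries at 48 hpf include the highest, in that of *SCN2B* the GFP- libraries at 48 hpf are highest, and in that of *scn3b* the GFP- libraries of both stages lie above the GFP+ libraries of their stage.

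Of the 6 skeletal muscle members tested, 2 were called higher and 1 lower in GFP+ at 48 hpf, against 14.6% and 14.4% of all genes tested. At 72 hpf 0 were called in either direction, against 6.22% and 10.8%. *CACNB1* (ENSDARG00000002167), the β subunit of the skeletal muscle channel, was at 8.02, 5.37 and 7.26 CPM in GFP+ and 17.6, 20.2 and 17.9 CPM in GFP- at 48 hpf, with a log2FC of -1.43 ± 0.29 (padj = 0.0026 by edgeR), and overlapped at 72 hpf at 6.56, 5.51 and 7.59 against 4.66, 8.22 and 7.46 CPM. The skeletal pore *cacna1sb* (ENSDARG00000042552), the voltage sensor of excitation-contraction coupling, was at 0.579, 0.771 and 1.80 CPM in GFP+ and 0.128, 0.0548 and 0.0659 CPM in GFP- at 48 hpf, from 22, 29 and 51 against 5, 2 and 2 counts, with a log2FC of 3.58 ± 0.75 (padj = 0.0034). Both calls were kept in each fit without 1 library. At 72 hpf *cacna1sb* was at 0.145, 0.269 and 0.0396 CPM in GFP+ and 0.424, 0.218 and 0.545 CPM in GFP-, which overlapped. The γ subunit *cacng6a* (ENSDARG00000036457) had 8, 4 and 16 counts in GFP+ and 0, 2 and 1 counts in GFP- at 48 hpf, a ratio per effective library size of 9.5 with an exact 95% counting interval from 2.93 to 48.8 (padj = 0.026). That call was lost without replicate 3 of GFP+ (padj = 0.12) or replicate 1 or 3 of GFP- (0.091 and 0.079). By 72 hpf *cacng6a* was at 0.543, 0.634 and 0.949 CPM in GFP+ and 0.254, 0.109 and 0.443 CPM in GFP-, without overlap but not called.

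The skeletal sodium pore *scn4ab* (ENSDARG00000034588) was at 9.31, 3.43 and 3.01 CPM in GFP+ and 1.16, 1.86 and 1.65 CPM in GFP- at 48 hpf, and at 1.1, 6.68 and 8.07 against 9.40, 18.4 and 19.8 CPM at 72 hpf. The fractions were separate at both stages and in opposite order, with a log2FC of 1.76 ± 0.64 (padj = 0.058 by edgeR) and -1.60 ± 0.63 (padj = 0.10). The paired fit gave 1.57 with padj = 0.047 at 48 hpf and -1.91 with padj = 0.029 at 72 hpf. *CACNG1* (ENSDARG00000008772) was at 4.97, 3.54 and 3.54 against 3.26, 5.26 and 5.43 CPM at 48 hpf and 3.01, 5.93 and 4.87 against 6.61, 5.45 and 8.72 CPM at 72 hpf, and *CACNA1S* (ENSDARG00000029457) at 0.736, 1.17 and 0.460 against 1.03, 1.15 and 0.527 CPM and 0.254, 0.365 and 0.672 against 0.424, 0.959 and 1.29 CPM. Both overlapped between the fractions at each stage. The sum over 8 skeletal muscle markers was 456.1 to 879.9 CPM in GFP+ and 60.3 to 112.3 CPM in GFP- at 48 hpf and 306.1 to 447.2 against 280.5 to 360.4 CPM at 72 hpf, none of them at 0 in any group. The largest in GFP+ at 48 hpf were *ckma* (203 to 406 CPM, against 7.51 to 24.1 in GFP-) and *acta1b* (186 to 427, against 3.06 to 21.2). At that stage *myog* was at 26.1 to 53.7 CPM in GFP+ and 36.1 to 48.4 CPM in GFP-. *myhz2* was at 0.637 to 7.61 against 1.39 to 7.32 CPM, and *tnnt3a* at 1.06 to 1.68 against 0.206 to 0.74 CPM. The remaining markers were *myod1* (8.07 to 8.7 against 2.27 to 2.77 CPM), *ckmb* (9.66 to 16.5 against 4.24 to 7.46) and *tnni2a.4* (1.34 to 2.26 against 0 to 0.192). By 72 hpf *myod1* was at 0.653 to 3.2 CPM in GFP+ and 7.0 to 15.0 CPM in GFP-. In the other direction, *ckma* was at 64.4 to 111 against 27.0 to 31.9 CPM. Of the 8 markers, 4 were called higher in GFP+ at 48 hpf, with a median log2FC of 1.55, against 14.6% of all genes tested. At 72 hpf 1 was higher and 4 lower, with a median of -1.31, against 6.22% and 10.8%. For 6 the fraction difference changed downward with stage (median -2.85), against 5.70%. Whether the fractions held skeletal muscle cells, and the part of such cells in the values of *scn4ab*, *cacna1sb* and the other skeletal members, was not tested.

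Between 48 and 72 hpf more members fell than rose in each fraction. In GFP+ cells 2 rose and 18 fell, against 11.4% and 11.5% of all genes tested, with a median log2FC of -1.12 against -0.02 over all genes. Those that rose were *cacna1c* and *cacna2d2a*. In GFP- cells 11 rose and 26 fell, against 26.1% and 22.3%, with a median of -1.02 against 0.14. By class, GFP+ cells counted 1 rise and 2 falls among the heart members, 1 and 11 among the neuronal and sensory members, and 4 falls among the 6 sodium β subunits. The 6 skeletal muscle members tested had 1 fall there. GFP- cells counted 2 rises and 5 falls among the heart members and 5 and 17 among the neuronal and sensory members. The skeletal muscle members had 3 rises and 1 fall in GFP-, and the sodium β subunits 1 rise and 3 falls. The number that rose in GFP+ was at most 1 in each of the 6 fits without 1 GFP+ library. The number that fell in GFP+ became 11 and 9 without replicates 1 and 2 of GFP+ at 72 hpf. The number that rose in GFP- became 6 without replicate 1 or replicate 3 of GFP- at 48 hpf and 4 without replicate 3 of GFP- at 72 hpf.

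Falls in both fractions included *SCN8A* (ENSDARG00000005775), with a log2FC of -2.59 ± 0.68 in GFP+ (padj = 0.017 by edgeR) and -3.16 ± 0.66 in GFP- (padj = 0.0023), and *cacnb4b*, with -2.00 ± 0.50 (padj = 0.014) and -2.80 ± 0.51 (padj = 0.0011). The GFP+ call of *SCN8A* was lost without replicate 1 of GFP+ at 48 hpf (0.052) or replicate 2 at 72 hpf (0.061), and that of *cacnb4b* without the latter (0.067). Of the 4 neuron markers, 3 fell in each fraction, against 11.5% of all genes tested in GFP+ and 22.3% in GFP-. Among the rises in GFP- were genes of the photoreceptor synapse, *CACNA1F* with 1.92 ± 0.74 (padj = 0.047) and the α2δ subunit genes *cacna2d4a* with 2.39 ± 0.75 (padj = 0.019) and *cacna2d4b* with 2.17 ± 0.60 (padj = 0.011). Without replicate 3 of GFP- at 72 hpf their padj was 0.50, 0.18 and 0.069. The calls of *CACNA1F* and *cacna2d4a* were lost as well without replicate 1 (0.15 and 0.054) or replicate 3 (0.12 and 0.056) of GFP- at 48 hpf, and that of *cacna2d4a* without replicate 2 (0.063). In the paired fit the padj of *CACNA1F* was 0.11. The related *CACNA2D4* and *cacna1fa* were not called as rising in GFP-. *CACNA2D4* was at 2.29, 1.26 and 1.48 CPM at 48 hpf and 0.424, 1.16 and 8.1 CPM at 72 hpf. *cacna1fa* was at 0.437, 0.795 and 0.494 CPM and then at 0, 0.567 and 2.76 CPM. Of the 8 retina markers, 5 rose in GFP-, against 26.1% of all genes tested. The sodium β gene *scn4ba* fell by 1.36 ± 0.46 on the log2 scale in GFP+ (padj = 0.048), which was lost in each of the 6 fits without 1 library (padj of 0.058 to 0.18).

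The difference between the fractions changed with stage for 6 members, 2 upward and 4 downward, against 2.47% and 5.70% of all genes tested (8.17% in either direction). Without replicate 1 of GFP- at 72 hpf the counts were 4 and 8, without replicate 3 of that group 7 changed upward, and without replicate 1 of GFP- at 48 hpf 2 changed downward. In 9 of the 12 fits without 1 library, all but those without replicate 1 of GFP+ at 72 hpf or replicates 1 and 3 of GFP- at 72 hpf, 1 changed upward. The calls of *cacna2d2a*, *cacnb2b* and *cacna1sb* were kept in each of the 12 fits without 1 library. The gene *cacna2d2a* (ENSDARG00000103390), of an α2δ subunit known from mammalian cerebellum and heart, was named because of this test, after its values were seen. It was at 3.26, 5.56 and 3.33 CPM in GFP+ and 12.7, 14.3 and 11 CPM in GFP- at 48 hpf, and at 9.65, 7.05 and 11.7 against 1.86, 2.81 and 3.92 CPM at 72 hpf. The fractions changed places without overlap at either stage, with a log2FC of -1.64 ± 0.35 (padj = 0.0035 by edgeR) and 1.71 ± 0.35 (padj = 0.0049), and the change was 3.35 ± 0.49 (padj = 0.0030). Between the stages it rose in GFP+, with a log2FC of 1.22 ± 0.34 (padj = 0.023), and fell in GFP-, with -2.12 ± 0.35 (padj = 0.00067). The rise in GFP+ was lost without replicate 1 or 3 of GFP+ at 48 hpf (0.088 and 0.087) or at 72 hpf (0.072 and 0.078), and with total counts (0.19).

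The other upward change was that of *cacng4b* (ENSDARG00000074669), a γ subunit gene also named after its values were seen, at 1.55, 1.22 and 1.56 CPM in GFP+ and 3.34, 5.24 and 5.53 CPM in GFP- at 48 hpf and 0.942, 2.44 and 1.54 against 0.0847, 0.218 and 1.12 CPM at 72 hpf. The change was 3.40 ± 0.89 (padj = 0.035 by edgeR), while the log2FC within a stage was -1.70 ± 0.61 (padj = 0.052, or 0.042 in the paired fit) and 1.70 ± 0.65 (padj = 0.094, called in the paired fit at 2.15). The downward changes were those of *cacnb2b* (given above), *cacna1sb* (-4.83 ± 1.03, padj = 0.015), *scn12aa* (-4.87 ± 1.17, padj = 0.024) and *scn4ab* (-3.36 ± 0.90, padj = 0.038). Leaving out 1 library ended the call in 9 of 12 fits for *cacng4b*, 5 for *scn12aa* and 6 for *scn4ab*, with a padj of at most 0.092, 0.07 and 0.10.

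**Figure D5:**
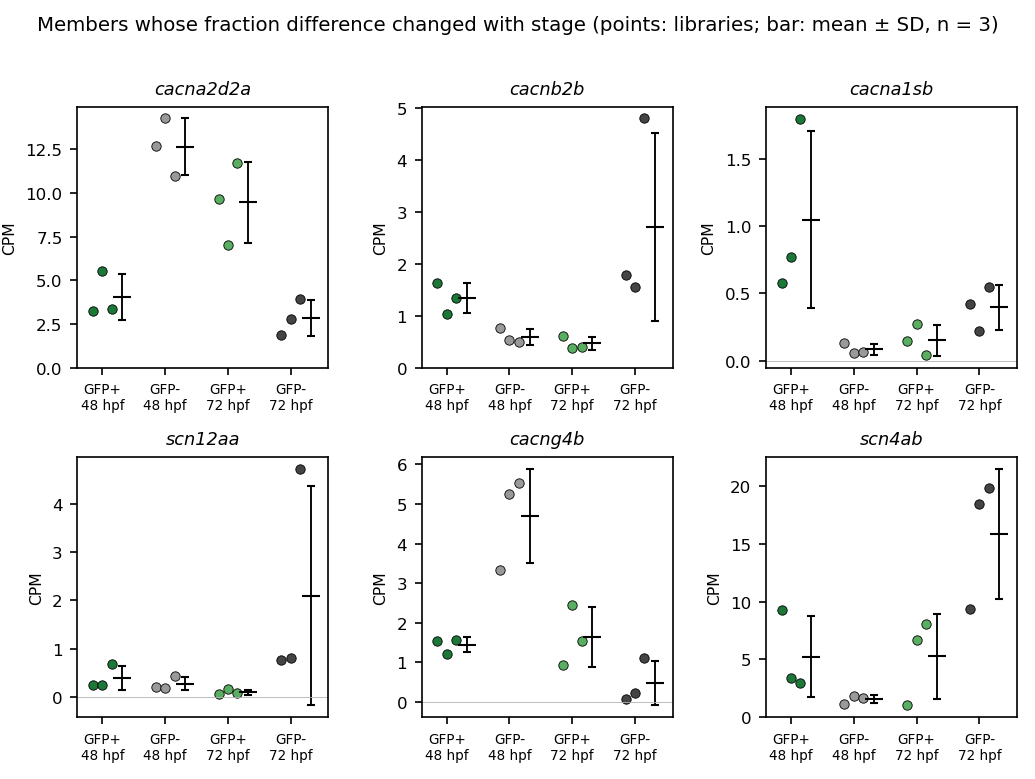
CPM (y axis of each panel) of the 6 members whose fraction difference changed with stage, with a point for each library and the mean ± SD (n = 3). GFP+ and GFP- change places between 48 and 72 hpf for *cacna2d2a* and *cacnb2b*, and replicate 3 of GFP- at 72 hpf reaches 4.80 CPM for *cacnb2b* and 4.73 CPM for *scn12aa*.

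A list of 37 partners and regulators of these channels and of calcium release could be matched by symbol for 23, all tested. In GFP+ 9 were higher and 6 lower at 48 hpf, and 5 and 5 at 72 hpf, against 14.6% and 14.4%, and 6.22% and 10.8%, of all genes tested. Among them are the 4 small GTPases *rrad*, *gem*, *rem1* and *rem2*, which bind β subunits and inhibit calcium current. Between the stages *rem1* rose in GFP+ from 6.79 ± 1.28 to 24.1 ± 1.90 CPM (SD, n = 3), a log2FC of 1.83 ± 0.25 (padj = 0.00051 by edgeR), and in GFP- from 11.9 ± 1.75 to 29.5 ± 2.60 CPM (1.31 ± 0.25, padj = 0.0013). The gene *gem* rose from 3.12 ± 1.27 to 8.42 ± 3.85 CPM in GFP+ (1.43 ± 0.38, padj = 0.017) and from 2.99 ± 0.569 to 29.8 ± 3.86 CPM in GFP- (3.31 ± 0.40, padj = 0.00012), whereas *rrad* fell in GFP+ from 47.7 ± 1.62 to 11.9 ± 4.05 CPM (-2.01 ± 0.37, padj = 0.0027). The gene *rem2* fell in GFP+ from 1.19 ± 0.20 to 0.207 ± 0.0582 CPM (-2.47 ± 0.45, padj = 0.0024) and was lower in GFP+ than in GFP- at 48 hpf (-2.05 ± 0.41, padj = 0.0024) and at 72 hpf (-3.89 ± 0.46, padj = 0.00016). Also lower in GFP+ were *rem1* at 48 hpf (-0.81 ± 0.24, padj = 0.025) and *gem* at 72 hpf (-1.83 ± 0.38, padj = 0.0052). Neither was called at the other stage (padj = 0.43 and 0.93), and *rrad* was called at neither (0.07 and 0.24). The partner genes were not refitted without single libraries.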

How the data were processed

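Fluorescent and nonfluorescent heart cells of *sqet31Et* embryos were measured at 48 and 72 hpf, with 3 libraries in each of the 4 groups. Per the paper and the labels, the authors sequenced SMART-Seq cDNA, demultiplexed with bcl2fastq 2.16.0.10, trimmed with cutadapt 1.17, quantified with Salmon 0.9.1 against GRCz11 and tested with DESeq2. The values are whole-number counts per Ensembl gene as deposited by the authors; how transcripts were summed to genes is not given in the sources used here, and the largest counts carry only 6 significant digits.

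Symbols came from the tables of the study for 4147 genes and from a gene name table for 21461. No transcript lengths or sequences were used. The 23222 genes passing filterByExpr were fitted over all 4 groups with TMM scaling and edgeR 4.0.16's quasi-likelihood test (R 4.3.3), with a padj threshold of 0.05 and no fold limit. The procedure was tested on simulated data. Depth was 20530602 to 62359004 counts per library, and no 2 libraries were identical. Intervals cover counting error only.

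The members and lists were chosen with earlier results of these data known. Values in every library are given for all heart members and, in the other classes, for the 3 of highest mean CPM and the 3 of smallest padj in each comparison between the fractions. Some genes that this rule selects enter the counts and are not reported here by name. The genes *cacna2d2a*, *cacng4b*, *cacng4a*, *cacna2d4a*, *cacna2d4b*, *CACNA2D4*, *cacna1fa*, *CACNG5* and *CACNG7* were named after their values were seen, as were the partner genes. Alternatives were DESeq2's size factors, total counts, no filter, a minimum of 10 counts in each of the 3 libraries of some group, DESeq2 1.42.0's Wald test, a replicate block, fits without the groups not compared, and leaving out each library. Per the study's methods, a replicate held both fractions of both stages, so same-numbered libraries may be paired. For comparisons of the fractions, the replicate block of the paired fit joined same-numbered libraries within a stage. For the stages and the interaction it joined same-numbered libraries of both stages, and so did not pair the fractions within each stage. Deviations from the group means of same-numbered libraries had correlations across genes of 0.128, 0.399 and 0.215 between the fractions at 48 hpf, 0.418, -0.071 and 0.494 at 72 hpf, 0, -0.013 and -0.195 between the stages in GFP+ and 0.139, 0.38 and -0.006 in GFP-. Paired values are given where they change a call of a named value.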

Additional observations from a re-analysis of the deposited data

Results flagged for a closer look

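For 6 channel genes the difference between GFP+ and GFP- cells changed between 48 and 72 hpf by the interaction test of edgeR. These were 3.33% of the members tested upward and 6.67% downward, against 2.47% and 5.70% of all genes tested. On the log2 scale the change was 3.35 for *cacna2d2a*, 3.40 for *cacng4b*, -3.69 for *cacnb2b*, -4.83 for *cacna1sb*, -4.87 for *scn12aa* and -3.36 for *scn4ab*. The calls of *cacna2d2a*, *cacnb2b* and *cacna1sb* were kept in all 12 fits that left out 1 library. The calls of *cacng4b*, *scn12aa* and *scn4ab* were lost in 9, 5 and 6 of them.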

How the results depend on the processing

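The number lower in GFP+ at 72 hpf was 28 and became 13 when the other groups were left out of the fit. The number that rose in GFP+ between the stages was 2 by edgeR and by DESeq2's Wald test, and became 1 without a filter and 0 with total counts, where 0 also had a positive log2FC at an unadjusted p under 0.05. The number that rose in GFP- was 11 and became 7 with total counts and 7 when the other groups were left out. The fraction difference changed with stage upward for 2 members, for 4 with DESeq2's size factors, for 1 with total counts and for 6 with DESeq2's Wald test, which called 9 downward against 4. Total counts moved the median log2FC of all genes between the stages from -0.02 to -0.316 in GFP+ and from 0.141 to -0.101 in GFP-. The cause of these changes was not tested.

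Over the fits that left out each of the 12 libraries, the counts ranged from 3 to 7 higher and 19 to 29 lower at 48 hpf, and from 3 to 5 higher and 15 to 29 lower at 72 hpf. Between the stages they ranged from 0 to 2 that rose (in the 4 fits with 0, 2 or 3 had an unadjusted p under 0.05) and 9 to 21 that fell in GFP+, and from 4 to 12 and 20 to 33 in GFP-. Those whose fraction difference changed ranged from 1 to 7 upward and 2 to 8 downward. No alternative reversed a called direction of the genes named by the rule or because of the interaction test. Reversal was not assessed for the counts, since each direction was counted on its own.

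With the replicate block the counts were 7 higher and 28 lower at 48 hpf, and 5 and 22 at 72 hpf. They were 2 and 19 between the stages in GFP+, 9 and 27 in GFP-, and 3 and 5 for the change with stage. Where pairing changed the call of a comparison printed for a named member, its value stands beside that comparison. Precision is limited by 3 libraries a group and, for many named members, by counts that were below 10 in some libraries. Among these members are *scn12aa*, *cacna1sb*, *cacng6a*, *CACNA1H*, *cacna1da*, *CACNA2D1*, *CACNG8*, *CACNA1F* and *cacng4b*. In GFP+ at 72 hpf, *cacna1da* had 6, 12 and 0 counts and *CACNG8* (ENSDARG00000020450) 3, 4 and 0.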
